A study of Mus musculus with 12 samples.

Results

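Transcripts of 34 genes of glycolysis, the pentose phosphate pathway and the hypoxia response were followed through 3 successive stages of early T cell development in the mouse thymus. They were taken by name, and each was read from its brightest probe set that the platform annotation lists with a single gene symbol. Such a probe set was found for 30 of the 34, all 30 passed the filter on dim signals, and they stand among 18193 genes on the array, of which 11174 were tested. Gpi1, Eno1 and G6pdx had no probe set listed under those symbols alone. Gapdh was measured only by probe sets that it shares with pseudogenes and by the array's control probe sets.

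Double negative (DN) thymocytes carry neither CD4 nor CD8. The groups were sorted from female C57BL/6 mice of 5 to 6 weeks, with no treatment or engineered allele named, as CD44+CD25+ cells (DN2), CD44-CD25+ cells (DN3) and CD44-CD25- cells (DN4), after column depletion of CD4+ and CD8+ cells and with cells stained for CD3, CD4, CD8, NK1.1 or the gamma-delta receptor left out. Each of 4 sorts pooled 4 mice (16 in all) and gave 1 array of each stage, so there are 12 arrays in 3 groups of 4 and no value for a single mouse. The transcript of Cd44, the marker that separates DN2 from the later stages, had mean log2 levels of 9.44, 5.76 and 5.62 in DN2, DN3 and DN4, and that of Il2ra, which encodes CD25, had 11.2, 10.46 and 6.9. The CD8 transcripts were highest in DN4, with 3.8, 4.96 and 7.28 for Cd8a and 3.16, 4.52 and 8.28 for Cd8b1. That of Cd4 stayed between 2.92 and 3.32. Whether the CD8 transcripts in DN4 came from cells with CD8 on their surface was not tested. This limit bears on every comparison with DN4.

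Glycolysis splits glucose into trioses and oxidises them to pyruvate, which lactate dehydrogenase can reduce to lactate and pyruvate dehydrogenase can pass to the mitochondria. The pentose phosphate pathway branches off early and supplies ribose for nucleotides and NADPH. When oxygen falls, the prolyl hydroxylases (Egln genes) no longer mark HIF for the VHL ubiquitin ligase, and HIF with its partner ARNT switches on many glycolytic genes. Dividing lymphocytes are known for a high glycolytic rate, and thymocytes begin rapid division around the DN3 to DN4 transition.

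HIF and ARNT bind DNA at a core whose letters are ACGTG or GCGTG, and MYC-family factors at CACGTG, so the stretches upstream of 6 members whose levels differed between stages are shown with these letters. The sequences are RefSeq's for GRCm38.p6, written 5′ to 3′ on the gene's own strand, from the first start site listed for each gene. Capitals mark ACGTG and GCGTG on either strand. Ldha, Pgam1, Pfkp and Ldhb encode glycolytic enzymes with higher levels in DN4 than in DN2, Bnip3 is a classical HIF target, and Pdk1 had a lower level in DN4. The coordinates are Ldha chr7:46845704-46845803 (plus strand), Pgam1 chr19:41911696-41911795 (plus), Pfkp chr13:6648772-6648871 (minus), Bnip3 chr7:138909524-138909623 (minus), Ldhb chr6:142507984-142508083 (minus) and Pdk1 chr2:71873124-71873223 (plus). Each stretch holds 100 bases of the promoter window. Their positions differ: those of Ldha, Pfkp and Pdk1 begin 100 bases before the start site, Bnip3 117, Ldhb 126 and Pgam1 175. The stretches of Bnip3, Ldhb and Pgam1 open on a match. The stretches thus show where matches lie and are not typical promoters. Rpe, Tpi1 and Vhl also differed between stages, and their windows held neither ACGTG nor GCGTG. Of the 17 members that differed, GCGTG was found for 11.
Ldha: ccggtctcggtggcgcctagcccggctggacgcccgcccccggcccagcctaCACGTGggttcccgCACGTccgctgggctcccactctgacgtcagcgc
Pgam1: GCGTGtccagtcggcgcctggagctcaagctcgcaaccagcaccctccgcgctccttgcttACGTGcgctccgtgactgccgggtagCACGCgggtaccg
Pfkp: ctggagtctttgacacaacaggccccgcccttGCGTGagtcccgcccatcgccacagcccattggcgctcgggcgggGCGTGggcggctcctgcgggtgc
Bnip3: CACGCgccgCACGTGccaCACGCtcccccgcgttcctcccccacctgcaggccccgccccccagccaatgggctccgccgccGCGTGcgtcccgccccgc
Ldhb: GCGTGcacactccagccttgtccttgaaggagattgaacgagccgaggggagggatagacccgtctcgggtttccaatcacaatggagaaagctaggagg
Pdk1: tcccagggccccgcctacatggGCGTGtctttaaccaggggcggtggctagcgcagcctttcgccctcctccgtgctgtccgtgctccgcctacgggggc

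The Ldha and Bnip3 stretches each hold CACGTG, which reads the same on both strands and therefore counts as ACGTG on each. Over the 250 bases before the start site and both strands, ACGTG was found for 15 of the 34 members (44.1%), against 25.4% of the 9100 tested genes with a promoter window and 18.5% of all 27025 genes with one. Genes with several start sites have several windows; counted by window, the shares were 36%, 21.8% and 16.6%. GCGTG was found for 67.6% of the members, 50.1% of the tested genes and 30.9% of all genes, and CACGTG for 17.6%, 9.99% and 6.86%. Among the 17 members that differed between stages in at least 1 comparison, ACGTG was found for 8 (47.1%). The median GC content of the windows was 59.4% for the members, 59.6% for the tested genes and 52.4% for all genes. These are matches of letters in a window and describe no binding in these cells.

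Levels are given as log2 of the quantile-normalised signal plus an offset of 5.68, a scale on which the change of a dim gene is understated, and a level is compared only with other levels of the same probe set. Differences were tested with limma over all 11174 genes, and a gene was called where its Benjamini-Hochberg adjusted p lay below 0.05. Errors of differences are limma's standard errors. All changes rest on 4 arrays per stage, and because the samples are bulk RNA, fewer cells of a type and less RNA per cell cannot be told apart. The 3 comparisons share arrays in pairs and are given side by side.

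From DN2 to DN3 Ldhb, Pfkp and Pgam1 rose and Hk2 fell. Thus 3 of 30 were called higher, where 4.76% of all tested genes were, and 1 was called lower, where 6.45% were, so the 4 calls in either direction lie near the 11.2% of all genes. From DN3 to DN4, 7 members were called higher (background 7.17%) and 1 lower (background 8.99%): Pfkp, Pgam1, Bnip3, Egln3, Pfkl, Pdk3 and Rpe were higher and Aldoc was lower. Between the ends of the series, 10 were higher in DN4 than in DN2 (background 17.9%) and 5 were lower (background 16.6%), where 34.6% of all tested genes were called in either direction. The median log2 change of the 30 members was 0.02, 0.20 and 0.23 in DN3 against DN2, DN4 against DN3 and DN4 against DN2, and that of all tested genes was 0.02, 0.05 and 0.06.

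Read by whether the 4 arrays of a stage kept clear of the 4 of the other, 4 members were higher and 3 lower in DN3 than in DN2 (8.10% and 9.32% of all tested genes), 9 higher and 2 lower in DN4 than in DN3 (12.5% and 11.5%), and 10 higher and 5 lower in DN4 than in DN2 (17.0% and 15.5%). The members with the same sign in 4 of 4 sorts were 5 higher and 8 lower from DN2 to DN3 (21.1% and 20.3% of all tested genes), 14 and 6 from DN3 to DN4 (29.4% and 23.4%), and 17 and 7 from DN2 to DN4 (31.0% and 26.1%). In both comparisons with DN4 the share of members that were higher lay above that of all genes, and the share that were lower lay near it or below.

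These counts depend on how the arrays are scaled. Arrays of DN4 were dimmer, with a median signal of 16.8 ± 1.24, than those of DN2 (22.2 ± 4.69) and DN3 (22.5 ± 2.69; SD, n = 4). With arrays centred on their median, 4 members were called higher and 0 lower in DN3 against DN2, where 6.16% and 5.08% of all tested genes were (limma; 9 members and 25.5% of genes had an unadjusted p under 0.05). That scaling gave 2 higher and 2 lower in DN4 against DN3 (2.25% and 13.3% of all genes), and 9 higher and 5 lower in DN4 against DN2 (13.8% and 18.2%). With no normalisation between arrays, 1 member was higher and 0 lower in DN3 against DN2 (2.61% and 2.76% of all genes; 6 members and 17.1% of genes had an unadjusted p under 0.05 in limma). In DN4 against DN3, 0 were then higher and 5 lower (0.357% and 25.3% of all genes; 10 members and 39.3% of genes at that p), and in DN4 against DN2, 4 were higher and 7 lower (2.56% and 24.5%). The median unnormalised change of all genes was 0.13, -0.41 and -0.29 in these comparisons. Without the 3 arrays of lowest median signal (DN2 replicate 2, DN4 replicate 1 and DN4 replicate 4), 2, 2 and 8 members were called in either direction. For DN4 against DN3 the 8 calls became 4 without DN3 replicate 1, 3 without DN3 replicate 2, 5 without DN4 replicate 1, and 4 without DN4 replicate 2 or DN4 replicate 4.

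**Figure D1:**
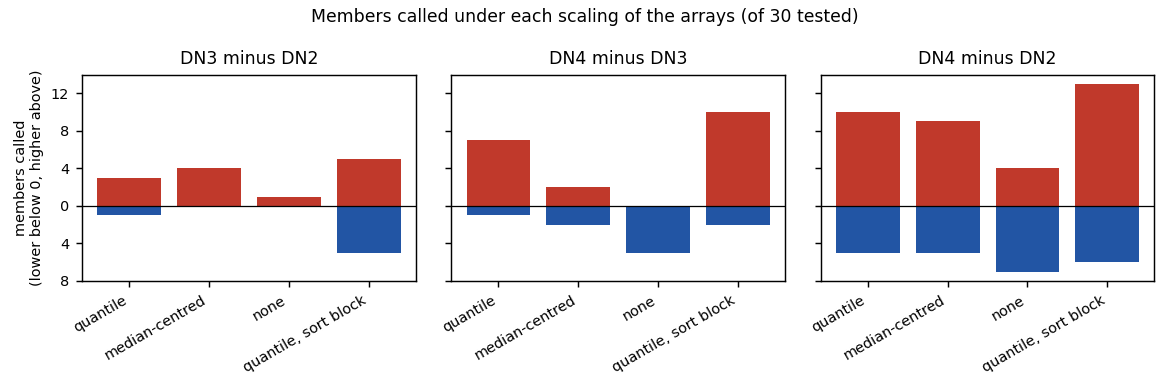
Number of the 30 tested members called higher (red, above 0) or lower (blue, below 0) in each comparison, under quantile normalisation, median centring, no normalisation, and quantile normalisation with the sort as a block. From DN3 to DN4 the split is 7 higher and 1 lower after quantile normalisation and 0 higher and 5 lower without normalisation.

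The sort number pairs the arrays, and a fit with the sort as a block kept all 27 calls and added 14. With the block, 5 members were called higher and 5 lower in DN3 against DN2 (background 9.96% and 10.8%), 10 and 2 in DN4 against DN3 (background 15.4% and 14.8%), and 13 and 6 in DN4 against DN2 (background 24.9% and 21.9%). Within sorts 1 and 2 alone, 1, 0 and 4 members were called in these 3 comparisons, and within sorts 3 and 4 alone 1, 0 and 9. At an unadjusted p under 0.05 in limma, 7 members differed between DN4 and DN3 within each pair of sorts, a share of the 30 close to the 23.1% and 24.6% of all tested genes.

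By pathway step, the called members from DN2 to DN4 were 3 higher and 3 lower of 9 in upper glycolysis and 4 higher of 6 in lower glycolysis. The pyruvate dehydrogenase kinases had 1 higher and 1 lower of 3, and the hypoxia genes 1 higher and 1 lower of 7. The pentose phosphate pathway had 1 higher of 5. Over all tested genes, 17.9% were called higher and 16.6% lower in this comparison. From DN3 to DN4 the called members were 2 higher and 1 lower, 1 higher, 1 higher, 2 higher and 1 higher, in the same order of steps. The shares of all tested genes were 7.17% higher and 8.99% lower. From DN2 to DN3 upper glycolysis had 1 higher and 1 lower and lower glycolysis had 2 higher, where 4.76% of all tested genes were higher and 6.45% lower. None of the kinases, hypoxia genes or pentose phosphate members was called by limma at that transition. There 0, 3 and 1 of them had an unadjusted p under 0.05 in limma, as had 25% of all tested genes. The block called 0, 2 and 1 of them, where it called 9.96% of all tested genes higher and 10.8% lower.

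**Figure D2:**
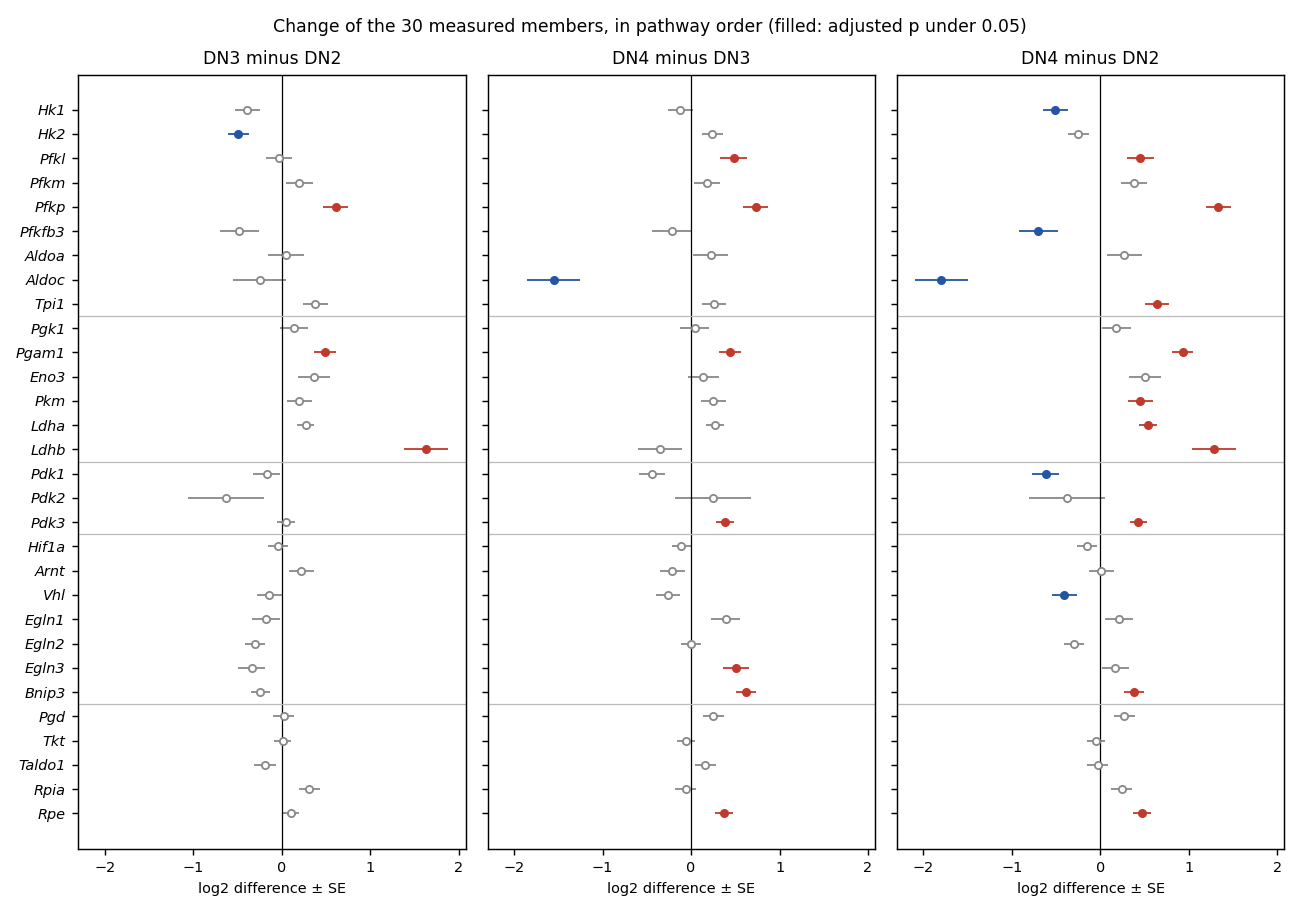
Log2 difference ± limma's SE of each of the 30 members in the 3 comparisons, in pathway order with lines between the steps, filled where the adjusted p is below 0.05 (red higher, blue lower). The greatest differences are those of Ldhb (1.63 in DN3 against DN2) and Aldoc (-1.80 in DN4 against DN2); without normalisation the sign turned for 2 called members (Pdk3 and Rpe) and 11 of 22 not called in DN4 against DN3, for 1 called member (Bnip3) and 5 of 15 not called in DN4 against DN2, and for 2 of 26 not called in DN3 against DN2.

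The hexokinases trap glucose in the cell as its phosphate. Hk2, the inducible form, had levels of 9.03, 8.94, 8.91 and 9.05 in DN2, 8.36, 8.59, 8.46 and 8.56 in DN3 and 8.52, 8.97, 8.62 and 8.80 in DN4, in the order of the sorts. Every DN3 array lay below every DN2 array, and DN4 overlapped both. Hk2 fell by 0.49 ± 0.12 from DN2 to DN3 (adjusted p = 0.0175) and differed by -0.25 ± 0.12 between DN4 and DN2 (adjusted p = 0.115). The call between DN3 and DN2 ended without DN3 replicate 1 (adjusted p = 0.0534), with no filter on dim genes (0.0533), with arrays centred on their median (-0.38, adjusted p = 0.0968) and without normalisation (-0.35, adjusted p = 0.458).

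Hk1, the form found in most tissues, had levels of 9.35, 9.47, 9.33 and 9.04 in DN2, 8.93, 9.07, 8.97 and 8.64 in DN3 and 8.93, 8.96, 8.68 and 8.57 in DN4. Sort 4 was the lowest at each stage, so DN2 and DN3 overlapped, while every DN4 array lay below every DN2 array. Hk1 was lower in DN4 than in DN2 by a log2 difference of -0.51 ± 0.14 (adjusted p = 0.0138). Its -0.39 between DN3 and DN2 was called only with the sort as a block (adjusted p = 0.0071, against 0.0974 without it). The mean of its probe sets gave -0.36 for DN4 against DN2 (adjusted p = 0.0918).

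Phosphofructokinase commits sugar to glycolysis, and its 3 isozyme genes are Pfkl, Pfkm and Pfkp. Pfkp, the platelet form, had levels of 8.53, 8.32, 8.21 and 8.0 in DN2, 9.06, 8.86, 8.83 and 8.74 in DN3, and 9.73, 9.80, 9.31 and 9.55 in DN4. The 3 stages did not overlap, and each sort rose at both steps. The rise was 0.61 ± 0.14 from DN2 to DN3 (adjusted p = 0.0171), 0.73 ± 0.14 from DN3 to DN4 (adjusted p = 0.00597) and 1.33 ± 0.14 in all, or 2.52-fold (adjusted p = 3.01e-05). Without DN3 replicate 1 the first step gave an adjusted p of 0.0534, and the unnormalised data gave 0.74 for it (adjusted p = 0.0879) and 0.26 for the second (adjusted p = 0.421). The other bright probe sets of Pfkp moved by 0.51 to 1.81 between DN2 and DN4 and by 0.04 to 0.46 between DN3 and DN4.

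Pfkl, the liver form, had levels of 9.29, 9.58, 9.55 and 9.39 in DN2, 9.07, 9.51, 9.58 and 9.53 in DN3 and 9.80, 10.16, 9.64 and 10.03 in DN4. Every DN4 array lay above every earlier one, by as little as 0.06 in sort 3. The difference was 0.48 ± 0.15 from DN3 to DN4 (adjusted p = 0.0474) and 0.45 ± 0.15 from DN2 to DN4 (adjusted p = 0.0345), where the unnormalised data gave 0.05 and 0.16 (adjusted p = 0.871 and 0.631). The first of these calls survived the loss of only 2 of the 12 arrays in turn (DN2 replicate 1 or DN4 replicate 3), and the other 10 gave adjusted p of 0.0535 to 0.122. The call between DN2 and DN4 ended without DN2 replicate 1 (adjusted p = 0.0856), DN2 replicate 4 (0.0704), DN4 replicate 2 (0.0971) or DN4 replicate 4 (0.0878).

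Pfkm, the muscle form, had mean levels of 8.14 ± 0.14, 8.34 ± 0.26 and 8.52 ± 0.20 (SD, n = 4), and its 0.38 ± 0.15 between DN4 and DN2 was called only with the block (adjusted p = 0.0382, against 0.0702 without it) and was -0.03 without normalisation. Pfkfb3 makes the sugar bisphosphate that activates phosphofructokinase. Its levels were 8.69, 8.37, 8.38 and 8.36 in DN2, 8.54, 8.15, 7.58 and 7.60 in DN3 and 8.13, 7.72, 7.39 and 7.75 in DN4. Every DN4 array lay below every DN2 array, whereas DN3 was split, with sorts 1 and 2 above sorts 3 and 4.

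Pfkfb3 fell by 0.70 ± 0.22 from DN2 to DN4 (adjusted p = 0.0263), and its -0.48 ± 0.22 between DN3 and DN2 was called only with the block (adjusted p = 0.0351, against 0.196 without it). Its other bright probe set (mean level 5.42) gave -0.42 between DN4 and DN2 and 0.23, the opposite sign, between DN3 and DN2. The call between DN4 and DN2 ended without DN2 replicate 1 (adjusted p = 0.0713), DN4 replicate 2 (0.054), DN4 replicate 3 (0.0728) or DN4 replicate 4 (0.0534).

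Aldolase splits the sugar bisphosphate into trioses. Aldoc, the brain form, had levels of 6.66, 7.22, 6.39 and 5.92 in DN2, 6.06, 7.03, 6.08 and 6.03 in DN3 and 4.59, 5.17, 4.98 and 4.28 in DN4. The DN4 arrays lay below all others and close to the filter level of 4.71, with 2 of the 4 under it. Aldoc fell by 1.55 ± 0.30 from DN3 to DN4, or 2.93-fold (adjusted p = 0.00556), and was 3.47-fold lower in DN4 than in DN2 (adjusted p = 0.000798). Aldoa, the main form in most tissues, had means of 10.61 ± 0.16, 10.66 ± 0.36 and 10.88 ± 0.35 (SD, n = 4), and its 0.27 ± 0.20 between DN4 and DN2 did not pass (adjusted p = 0.33).

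Tpi1, which interconverts the trioses, had levels of 11.22, 10.86, 11.11 and 11.34 in DN2, 11.14, 11.60, 11.63 and 11.70 in DN3 and 11.69, 11.83, 11.78 and 11.81 in DN4. Every DN4 array lay above every DN2 array, and DN3 replicate 1 alone remained among the DN2 levels. Tpi1 rose by 0.64 ± 0.14 from DN2 to DN4 (adjusted p = 0.00465), where the unnormalised data gave 0.52 (adjusted p = 0.12), and its other bright probe sets rose by 0.71 to 0.87. For DN3 against DN2 the chosen probe set gave 0.38 ± 0.14 (adjusted p = 0.118), and the mean of the probe sets gave 0.45 (adjusted p = 0.0421).

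In lower glycolysis, from triose to lactate, all 6 measured members had a positive change from DN2 to DN4 in all 4 sorts, with a median of 0.52. Of all tested genes, 31.0% had such a change in all 4 sorts. By limma 4 of the 6 were called higher, where 17.9% of all tested genes were. Without normalisation the mean change of each of the 6 was positive too, but only 0.01 for Eno3 and 0.14 for Pgk1. Each array's value for the called members is drawn in the panels by gene.

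**Figure D3:**
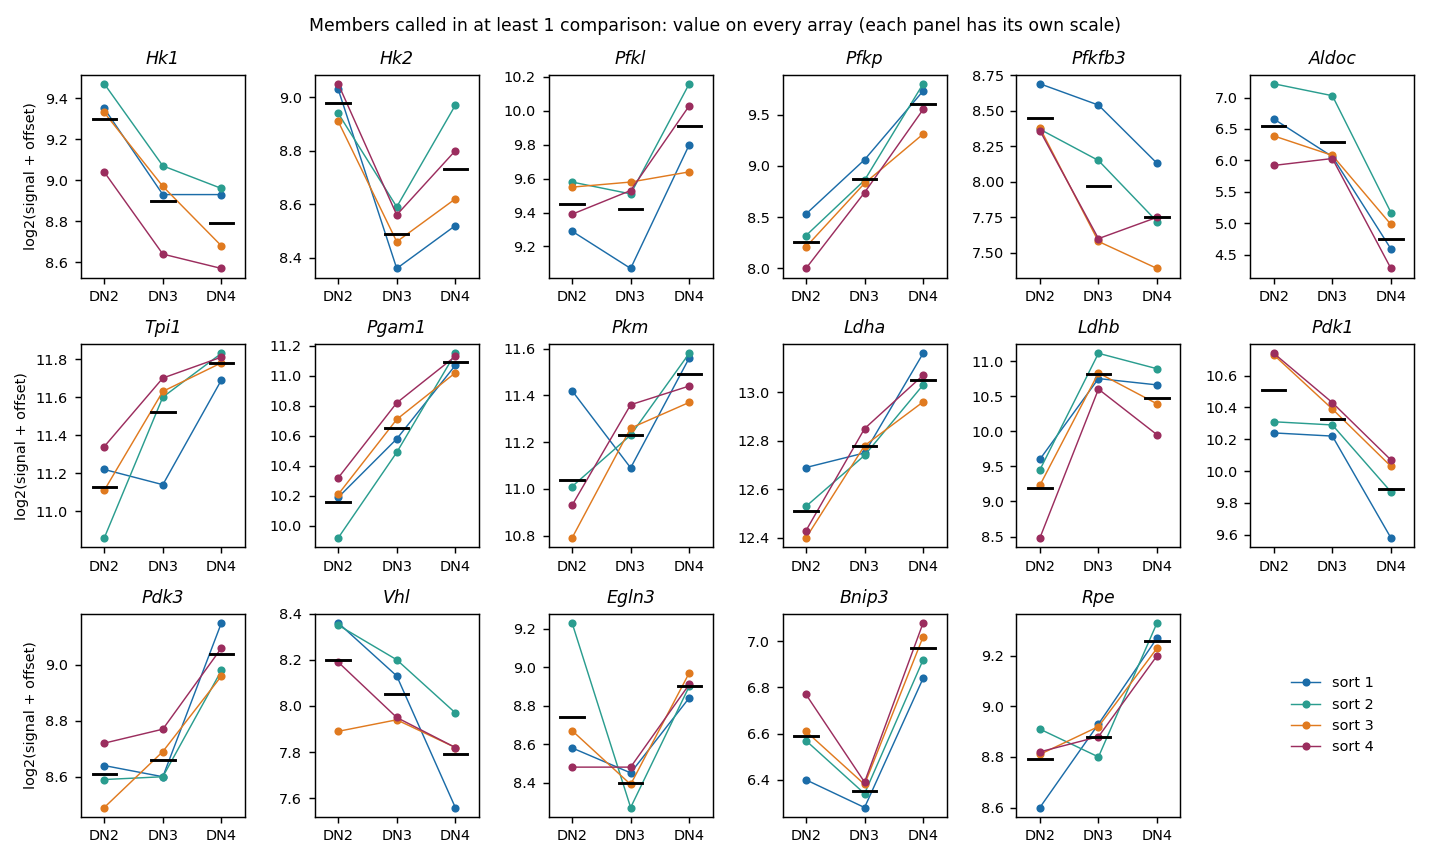
Log2(signal + offset) of the 17 members called in at least 1 comparison, 1 panel per gene with its own scale, with a point per array, lines joining arrays of the same sort, and a black bar at each stage mean. Pfkp and Pgam1 have 3 stages that do not overlap, Ldhb is lowest in DN2, and Aldoc is lowest in DN4.

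Pgam1, phosphoglycerate mutase, had levels of 10.19, 9.92, 10.21 and 10.32 in DN2, 10.58, 10.49, 10.71 and 10.82 in DN3, and 11.07, 11.15, 11.02 and 11.13 in DN4. The 3 stages did not overlap. Pgam1 rose by 0.49 ± 0.12 and then by 0.44 ± 0.12 (adjusted p = 0.0172 and 0.0232), and by 0.93 ± 0.12 in all, or 1.91-fold (adjusted p = 8.7e-05). The first step gave an adjusted p of 0.0574 without DN3 replicate 4, and the unnormalised data gave 0.64 for it (adjusted p = 0.141) and 0.10 for the second (adjusted p = 0.768). The second step ended without DN3 replicate 1 (adjusted p = 0.0571), DN3 replicate 2 (0.0738), DN4 replicate 2 (0.0581) or DN4 replicate 4 (0.0604).

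Pkm, pyruvate kinase, had levels of 11.42, 11.01, 10.79 and 10.93 in DN2, 11.09, 11.23, 11.26 and 11.36 in DN3 and 11.56, 11.58, 11.37 and 11.44 in DN4. DN2 replicate 1 reached into the DN4 levels, and the other DN2 arrays lay below them. Pkm was higher in DN4 than in DN2 by 0.45 ± 0.14 (adjusted p = 0.0229), where the unnormalised data gave 0.32 (adjusted p = 0.278). That call ended without DN2 replicate 3 (adjusted p = 0.0658), DN2 replicate 4 (0.056), DN4 replicate 1 (0.0543) or DN4 replicate 2 (0.0585). This gene's splice forms cannot be separated from a single probe set level.

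Lactate dehydrogenase is built from the products of Ldha, which favours lactate production, and Ldhb, the heart form. Ldha had levels of 12.69, 12.53, 12.40 and 12.43 in DN2, 12.75, 12.74, 12.78 and 12.85 in DN3, and 13.16, 13.03, 12.96 and 13.07 in DN4. The stages followed each other without overlap. Ldha rose by 0.54 ± 0.10 from DN2 to DN4, or 1.46-fold (adjusted p = 0.00145). Its 0.27 ± 0.10 at each step was called only with the block (adjusted p = 0.0497 and 0.0339, against 0.118 and 0.083 without it).

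Ldhb had levels of 9.60, 9.45, 9.23 and 8.48 in DN2, 10.75, 11.11, 10.83 and 10.60 in DN3 and 10.66, 10.89, 10.39 and 9.95 in DN4. The DN2 arrays lay below all others, and DN3 and DN4 overlapped. Ldhb rose 3.09-fold from DN2 to DN3 (log2 1.63 ± 0.25, adjusted p = 0.0013) and was 2.43-fold higher in DN4 than in DN2 (adjusted p = 0.00209). Between DN4 and DN3 it differed by -0.35 ± 0.25 (adjusted p = 0.369), negative in all 4 sorts. Its other bright probe sets rose by 1.32 to 1.70 from DN2 to DN3.

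Pgk1, phosphoglycerate kinase, had means of 12.39 ± 0.27, 12.53 ± 0.09 and 12.58 ± 0.25 (SD, n = 4) and a change of 0.18 ± 0.16 between DN4 and DN2 (adjusted p = 0.395). The mean of its probe sets gave 0.44 (adjusted p = 0.0432). Eno3, the muscle enolase, had means of 6.25 ± 0.16, 6.61 ± 0.27 and 6.75 ± 0.34 and differed by 0.50 ± 0.18 between DN4 and DN2 (adjusted p = 0.0527).

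Gapdh, the triose phosphate dehydrogenase, could be read only from control probe sets at the 3′ end, middle and 5′ end of its transcript, a choice made after the data were seen. DN4 differed from DN2 by 0.13 ± 0.09 at the 3′ end (adjusted p = 0.27), 0.25 ± 0.09 in the middle (adjusted p = 0.0595) and 0.43 ± 0.12 at the 5′ end (adjusted p = 0.0153). The log2 ratio of the 3′ to the 5′ signal, a sign of RNA quality after amplification, averaged 1.39 ± 0.32, 1.04 ± 0.17 and 1.16 ± 0.21 at the 3 stages (SD, n = 4). With this ratio as a covariate beside the sort block, 21 of the 27 calls were kept. The calls that ended were those of Hk2 (-0.49), Pfkp (0.70) and Pgam1 (0.49) in DN3 against DN2, Pfkl (0.43) and Egln3 (0.39) in DN4 against DN3, and Vhl (-0.41) in DN4 against DN2, with adjusted p of 0.0547 to 0.187. The differences of Hk2, Pgam1 and Vhl were as large as without the covariate, that of Pfkp was larger, and those of Pfkl and Egln3 were smaller.

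Pyruvate dehydrogenase kinases switch off the complex that feeds pyruvate to the mitochondria. Pdk1, a known HIF target, had levels of 10.24, 10.31, 10.73 and 10.74 in DN2, 10.22, 10.29, 10.39 and 10.43 in DN3 and 9.58, 9.87, 10.03 and 10.07 in DN4. Every DN4 array lay below every array of the earlier stages. Pdk1 was lower in DN4 than in DN2 by a log2 difference of -0.62 ± 0.15, or 1.54-fold (adjusted p = 0.00756). Its -0.44 ± 0.15 between DN4 and DN3 was called only with the block (adjusted p = 0.00683, against 0.0647 without it). The other bright probe sets of Pdk1 differed by -0.63 to -0.46 between DN4 and DN2. One of them (mean level 9.84) fell mostly at the first step, with -0.51 and then -0.13. The others gave -0.22 and -0.10 at the first step and -0.27 and -0.36 at the second.

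Pdk3, another kinase of the family, had levels of 8.64, 8.59, 8.49 and 8.72 in DN2, 8.60, 8.60, 8.69 and 8.77 in DN3 and 9.15, 8.98, 8.96 and 9.06 in DN4. The DN4 arrays lay above all others, and DN2 and DN3 overlapped. Pdk3 was higher in DN4 than in DN3 by 0.38 ± 0.10 (adjusted p = 0.0223), where the unnormalised data gave -0.12, and than in DN2 by 0.43 ± 0.10 (adjusted p = 0.00509), where they gave 0.06. The call against DN3 ended without DN3 replicate 1 (adjusted p = 0.055), DN3 replicate 2 (0.0668), DN4 replicate 1 (0.0592) or DN4 replicate 4 (0.0578). Pdk2 was near the filter level, with means of 4.99 ± 0.16, 4.36 ± 0.63 and 4.61 ± 1.01 (SD, n = 4), and was not called.

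In the genes of oxygen sensing, Hif1a, the regulated HIF subunit, had means of 11.05 ± 0.08, 11.01 ± 0.12 and 10.91 ± 0.12 (SD, n = 4). Its partner Arnt had means of 6.89 ± 0.23, 7.10 ± 0.18 and 6.90 ± 0.12. At its brightest probe set neither passed the test in any comparison, with adjusted p of 0.312 to 0.872 for Hif1a and 0.331 to 0.968 for Arnt, and differences between the stages of at most 0.22 in size. Other probe sets of both genes did differ between DN4 and DN2: a dimmer one of Hif1a (mean level 9.08) by -0.50 (adjusted p = 0.0121) and one of Arnt (mean level 5.52) by 0.82 (adjusted p = 0.00954), in a fit of all probe sets. These are transcript levels, and HIF is regulated largely through the stability of its protein.

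Vhl, the ubiquitin ligase subunit that removes HIF, had levels of 8.36, 8.35, 7.89 and 8.19 in DN2, 8.13, 8.20, 7.94 and 7.95 in DN3 and 7.56, 7.97, 7.82 and 7.82 in DN4. DN2 and DN4 overlapped through DN2 replicate 3, though DN4 was the lower in each sort. The difference was -0.41 ± 0.14 (adjusted p = 0.0346), but another bright probe set of Vhl gave 0.19, the opposite sign. The call ended without DN2 replicate 1 (adjusted p = 0.0858), DN2 replicate 2 (0.0852), DN2 replicate 4 (0.06), DN4 replicate 1 (0.0943), DN4 replicate 3 (0.0581) or DN4 replicate 4 (0.0636).

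Of the 3 prolyl hydroxylases, Egln3, itself known as HIF-inducible, had levels of 8.58, 9.23, 8.67 and 8.48 in DN2, 8.45, 8.27, 8.39 and 8.48 in DN3 and 8.84, 8.90, 8.97 and 8.91 in DN4. Every DN4 array lay above every DN3 array, and DN2 replicate 2 was higher than any of them. Egln3 was higher in DN4 than in DN3 by 0.51 ± 0.15 (adjusted p = 0.0364), and its other bright probe set gave 0.23. The call ended without any one of the 8 arrays compared, with adjusted p of 0.0541 to 0.0976, and the unnormalised difference was 0.00.

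Egln1, the main oxygen sensor of most cells, had means of 9.95 ± 0.27, 9.77 ± 0.17 and 10.16 ± 0.22 (SD, n = 4). Its 0.39 ± 0.16 between DN4 and DN3 was called only with the block (adjusted p = 0.0152, against 0.119 without it) and was -0.02 without normalisation. Egln2 had means of 9.37 ± 0.09, 9.07 ± 0.16 and 9.07 ± 0.12. All its DN3 and DN4 arrays lay below the DN2 arrays, and its -0.30 ± 0.11 in both comparisons with DN2 was called only with the block (adjusted p = 0.0429 and 0.0215, against 0.116 and 0.0568 without it).

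Bnip3, a HIF target on the outer mitochondrial membrane that promotes mitophagy, had levels of 6.40, 6.57, 6.61 and 6.77 in DN2, 6.28, 6.34, 6.38 and 6.39 in DN3 and 6.84, 6.92, 7.02 and 7.08 in DN4. Each stage kept apart from the others, with DN3 the lowest. Bnip3 was higher in DN4 than in DN3 by 0.62 ± 0.11, or 1.54-fold (adjusted p = 0.00257), and than in DN2 by 0.38 ± 0.11 (adjusted p = 0.0155), where the unnormalised data gave 0.05 and -0.10. With arrays centred on their median the differences were 0.37 (adjusted p = 0.0618) and 0.19 (adjusted p = 0.267). The -0.24 ± 0.11 between DN3 and DN2 was called only with the block (adjusted p = 0.0455, against 0.183 without it).

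In the pentose phosphate pathway, Rpe, the epimerase of its sugar phosphates, was the member called without the block. Its levels were 8.60, 8.91, 8.81 and 8.82 in DN2, 8.93, 8.80, 8.92 and 8.88 in DN3 and 9.27, 9.33, 9.23 and 9.20 in DN4. The DN4 arrays lay above all others. Rpe was higher in DN4 than in DN3 by 0.37 ± 0.10 (adjusted p = 0.0233) and than in DN2 by 0.47 ± 0.10 (adjusted p = 0.00307), where the unnormalised data gave -0.10 and 0.13.

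Another bright probe set of Rpe gave 0.03 between DN4 and DN3 and 0.22 between DN4 and DN2, and the mean of its probe sets was called in neither (adjusted p = 0.615 and 0.327). The Rpe call between DN4 and DN3 ended without DN3 replicate 2 (adjusted p = 0.0708) or DN4 replicate 2 (0.062).

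Rpia, which makes ribose phosphate, had means of 9.87 ± 0.17, 10.18 ± 0.13 and 10.11 ± 0.15 (SD, n = 4), and its 0.31 ± 0.12 between DN3 and DN2 was called only with the block (adjusted p = 0.0301, against 0.144 without it). Its 0.24 ± 0.12 between DN4 and DN2 had an adjusted p of 0.15 without the block and 0.0378 with it, and was -0.03 without normalisation. Pgd, a NADPH-producing dehydrogenase, had means of 11.11 ± 0.14, 11.13 ± 0.09 and 11.38 ± 0.16. Its 0.25 ± 0.12 against DN3 and 0.27 ± 0.12 against DN2 in DN4 were called only with the block (adjusted p = 0.0398 and 0.0185), and the first was -0.05 without normalisation. The transketolase gene Tkt (means of 12.97, 12.99 and 12.93) and the transaldolase gene Taldo1 (11.77, 11.58 and 11.74), which link the pathway back to glycolysis, did not pass with or without the block.

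Whether isozymes of the same step changed unequally was asked from their log2 ratio within each array, in 12 pairs and 3 comparisons. An exact two-sided permutation test of 4 against 4 arrays, which does not use the sorts, reaches no lower than p = 0.0286. At least 21 of the 36 contrasts would have to reach that value for any to pass after adjustment. Of the 36 contrasts 9 reached it, and after Benjamini-Hochberg adjustment over the 36 none passed (smallest adjusted p = 0.114). The sizes are therefore given as values.

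The Ldha to Ldhb ratio changed by -1.36 from DN2 to DN3, when Ldhb rose by 1.63 and Ldha moved by 0.27 (p = 0.0286, exact permutation). It changed back by 0.62 from DN3 to DN4 (p = 0.0571, exact permutation), positive in all 4 sorts. The Aldoa to Aldoc ratio changed by 1.77 from DN3 to DN4 and by 2.06 from DN2 to DN4 (p = 0.0286 for each, exact permutation). In the phosphofructokinase trio, the ratio to Pfkp changed between DN2 and DN4 by -0.88 for Pfkl and by -0.96 for Pfkm (p = 0.0286 for each, exact permutation).

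The Pdk1 to Pdk3 ratio changed by -0.82 from DN3 to DN4 and by -1.05 from DN2 to DN4, and the Egln2 to Egln3 ratio by -0.51 from DN3 to DN4 (p = 0.0286 for each, exact permutation). The 9 contrasts at p = 0.0286 (exact permutation) also include -0.23 for Pfkl to Pfkm from DN2 to DN3. All 9 had the same sign in the 4 sorts and an adjusted p of 0.114. The Ldha to Ldhb change of 0.62 had an adjusted p of 0.147. The hexokinase pair Hk1 and Hk2 changed by 0.10 relative to each other from DN2 to DN3 (p = 0.514, exact permutation) and by -0.36 from DN3 to DN4 (p = 0.0571, exact permutation). In the unnormalised data the ratios changed by -1.35 for Ldha to Ldhb in the first step, 1.84 for Aldoa to Aldoc in the second and -0.94 for Pdk1 to Pdk3 over both.

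**Figure D4:**
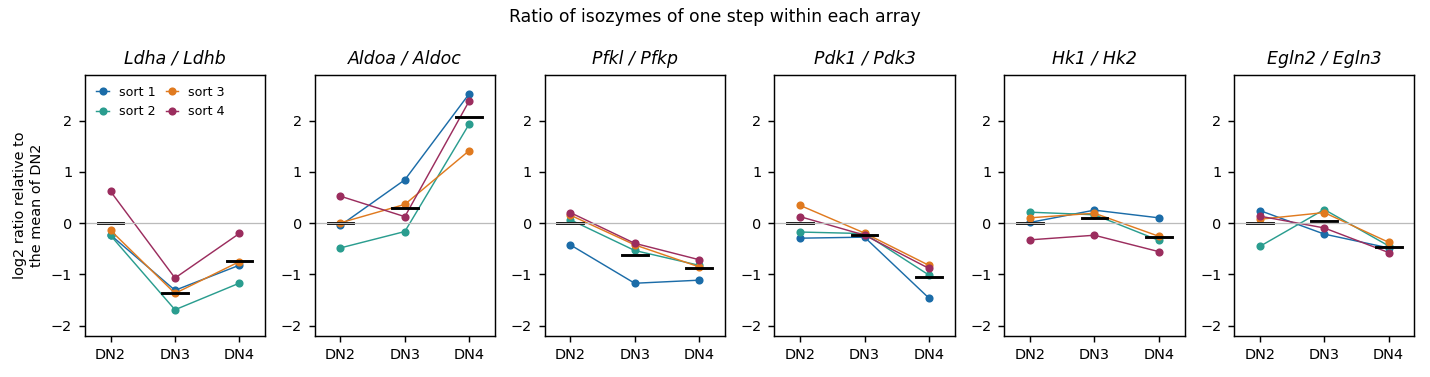
Log2 ratio of 6 isozyme pairs on each array, set to 0 at the mean of DN2, with lines joining arrays of a sort and black bars at the stage means. The Aldoa to Aldoc ratio is 2.06 higher in DN4 than in DN2, the Pdk1 to Pdk3 ratio is 1.05 lower, and the Ldha to Ldhb ratio is lowest in DN3.

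Genes around the members were read from lists of the same pathways, under quantile normalisation only. How the counts of these lists depend on the scaling was not tested. Of 8 tested genes of the pyruvate dehydrogenase complex, its phosphatases and the mitochondrial pyruvate carrier, 3 were called higher from DN2 to DN3. From DN3 to DN4 3 were called higher, and from DN2 to DN4 5, with a median change of 0.54 (0.06 for all tested genes). The shares of all tested genes called higher were 4.76%, 7.17% and 17.9% in these comparisons. Pdhx, the subunit that anchors the dihydrolipoyl dehydrogenase, rose by 0.67, 0.75 and 1.42 in these comparisons (adjusted p = 0.0029, 0.00159 and 3.31e-06). Dlat, the acetyltransferase core, was higher by 0.48 in DN3 (adjusted p = 0.0448) and by 1.02 in DN4 (adjusted p = 0.000181) than in DN2. The pyruvate carrier gene Mpc1 rose by 0.47 and 0.67 over the same intervals (adjusted p = 0.0236 and 0.00107), and the phosphatase gene Pdp1 by 0.84 from DN3 to DN4 (adjusted p = 0.0184).

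Of 15 other glycolysis genes, 1 was called lower from DN2 to DN3 (6.45% of all tested genes). From DN3 to DN4 1 was higher and 2 lower (7.17% and 8.99%), and from DN2 to DN4 2 were higher and 2 lower (17.9% and 16.6%). Fbp1, the gluconeogenic bisphosphatase that opposes phosphofructokinase, fell by 2.63 from DN3 to DN4 (adjusted p = 0.000834) and by 3.01 from DN2 to DN4 (adjusted p = 8.14e-05), to a mean of 4.33. That mean is under the filter level, where the scale compresses differences, so the sizes of these falls are not exact. Pgam2, the muscle mutase, fell by 2.08 from DN3 to DN4 (adjusted p = 0.00478), to a mean of 4.8. That mean is close to the filter level, so the size of this fall is not exact either. The 1.16 of Pgam2 between DN3 and DN2 was not called by limma (adjusted p = 0.0861). The phosphoglucomutase genes Pgm1 and Pgm2 were lower, the first by a log2 difference of -0.53 in DN3 (adjusted p = 0.0416) and the second by -0.69 in DN4 (adjusted p = 0.00145), each against DN2.

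Of 23 other hypoxia pathway genes, 1 was called higher from DN2 to DN3 (4.76% of all tested genes). From DN3 to DN4 1 was higher and 1 lower (7.17% and 8.99%), and from DN2 to DN4 3 were higher and 2 lower (17.9% and 16.6%). Ankrd37, a known HIF target, rose by 0.71, 0.89 and 1.59 in the 3 comparisons (adjusted p = 0.00645, 0.00165 and 5.58e-06). Of 6 other pentose phosphate genes, 1 was called lower from DN3 to DN4 (8.99% of all tested genes), and 1 higher and 1 lower from DN2 to DN4 (17.9% and 16.6%). The lower one from DN3 to DN4 was H6pd, the dehydrogenase of the endoplasmic reticulum (-0.71, adjusted p = 0.0109).

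Markers of dividing cells were also higher in DN4. Of 16 proliferation genes, 8 were called higher from DN3 to DN4 and 9 from DN2 to DN4, where 7.17% and 17.9% of all tested genes were. From DN2 to DN3, where Ldhb, Pfkp and Pgam1 rose, 0 of the 16 were called higher and 1 lower (4.76% and 6.45% of all tested genes). The marker lists too were read under quantile normalisation only. Their summed signal was 38000 to 44600 in DN2, 36500 to 42800 in DN3 and 49600 to 53300 in DN4. The summed signals of mast cell, natural killer and myeloid markers were highest in DN2, as were the mean levels of Hk1, Pfkfb3, Aldoc, Pdk1 and Vhl. Most of the fall of Aldoc, Pdk1 and Vhl at their chosen probe sets, however, came from DN3 to DN4. The changes at the 2 steps were -0.25 and -1.55 for Aldoc, -0.17 and -0.44 for Pdk1, and -0.14 and -0.26 for Vhl. In DN2 the mast cell sum came mainly from Cpa3 and the natural killer sum mainly from Nkg7. Not every listed gene followed its sum. Prf1, a natural killer marker, was highest in DN3 (4.69, 5.32 and 4.65), and Csf1r, a myeloid marker, in DN4 (5.33, 5.62 and 5.76). Mast cell markers summed to 2820 to 3790 in DN2, 87.4 to 257 in DN3 and 35.1 to 73 in DN4. Only 2 of the 6 listed passed the filter, and both were called lower in DN4 than in DN2, where 16.6% of all tested genes were.

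Natural killer markers summed to 1870 to 2160, 430 to 755 and 106 to 141 in the 3 stages, with 3 of 4 lower in DN4 than in DN2. Myeloid markers summed to 1070 to 1930, 410 to 517 and 131 to 264, with 4 of 9 lower, where 16.6% of all tested genes were. B cell markers summed to 251 to 312, 222 to 282 and 171 to 282. The summed signal of thymic stromal markers was 291 to 456, 504 to 742 and 268 to 396. Its rise in DN3 came mainly from Epcam, with mean levels of 7.41, 8.89 and 7.22. Of the others that passed the filter, Krt8 (4.19, 3.90 and 5.27), Foxn1 (4.55, 4.03 and 4.38) and Pecam1 (6.63, 5.66 and 5.98) were lowest in DN3. Krt5 was at 4.95 in each stage, and Krt18 at 4.88, 4.89 and 4.53. The sum of erythroid markers was highest in DN4 (118 to 128, 106 to 162 and 174 to 254), but none of the 3 tested was called in any comparison. The haemoglobin gene Hba-a1, at mean levels of 3.56 to 3.79, stayed below the filter level. Alas2 was not tested either, but its mean level rose above the filter level in DN4 (3.27, 3.78 and 5.47). Of the listed genes measured, only Slc4a1 did not have its highest mean in DN4 (3.89, 4.21 and 3.82). The part of dividing cells and of other cell types in the members' differences was not tested.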

How the data were processed

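RNA of 3 thymocyte stages was amplified and hybridised to 12 Affymetrix Mouse Genome 430 2.0 arrays. The authors deposited 1 linear intensity per probe set and array, made with GCOS, as the submitters' processing notes state. Which algorithm and scaling it used is not given in the sources consulted. Of 45101 probe sets, 64 controls were left out, 34945 had 1 symbol, 932 several and 9160 none listed; 34741 symbols were updated through Entrez to RefSeq's GRCm38.p6, and 204 were kept. A gene was its brightest such probe set.

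Signals were quantile normalised, an offset of 5.68 (the 25th percentile) was added, and log2 was taken. Genes above the table median (log2 4.71) on at least 4 arrays were kept. Group means were fitted with limma 3.58.1 (R 4.3.3; lmFit, contrasts, eBayes; two-sided, Benjamini-Hochberg, threshold 0.05). The number of arrays limits the precision. On simulated data, genes seeded at a log2 change of 0.5 were recovered in 21%, 18.5% and 17.5% of cases for DN3 against DN2, DN4 against DN3 and DN4 against DN2. Those at 1 were recovered in 70.1%, 70.1% and 68%. The simulation left 10974 of 11174 genes unchanged and had no sort effect. In the data 1253, 1806 and 3863 genes were called, so the adjustment was stricter in the simulation. Its percentages therefore do not measure the power of these comparisons.

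The labels give arrays with the same sort number a common cell source, and after the stage means were taken off, arrays correlated at 0.251 to 0.343 within a sort and at most 0.107 between sorts. The block is therefore paired by sort. Values of arrays of a stage correlated at 0.969 to 0.985, and 0 pairs were identical. Plots used matplotlib 3.10.9, pandas 2.3.3 and Python 3.11.15.

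The members, the pathway and marker lists and the tests were chosen with earlier results of these data known. Every array value is given for members called in at least 1 comparison. Of the other pathway genes, at most 6 called genes per comparison with the smallest adjusted p are named. Alternatives were the sort block, median centring, no normalisation, an offset of 1, no filter or one at the 75th percentile, the mean of all probe sets, promiscuous probe sets (suffixes x and s) left out, pairs of sorts, and each array left out. Leaving out the 3 dimmest arrays, the covariate for RNA quality and the control probe sets of Gapdh were added after the data were seen.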

Additional observations from a re-analysis of the deposited data

Results flagged for a closer look

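In 3 of 90 groups of 4 arrays, 1 for each of the 30 members at each stage, a single array lay far from the other 3 for the spread of its group. Chance alone gives about 1 such group in 20. Pfkl in DN3 replicate 1 was at 9.07, where the others were at 9.51 to 9.58. Pfkfb3 in DN2 replicate 1 was at 8.69, where the others were at 8.36 to 8.38. Aldoc in DN3 replicate 2 was at 7.03, where the others were at 6.03 to 6.08. The value of Aldoc in sort 2 was also the highest of its stage in DN2 (7.22) and in DN4 (5.17). Without DN3 replicate 1, the difference of Pfkl between DN4 and DN3 was 0.37 (limma adjusted p = 0.118).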

How the results depend on the processing

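For DN4 against DN2, the calls of Pfkp, Pgam1, Ldha, Ldhb, Pdk1 and Aldoc held under every scaling, offset, filter and probe set alternative that tested them and without each array, as did Ldhb in DN3 against DN2 and Aldoc in DN4 against DN3. Members called, in either direction, were 4, 8 and 15 for DN3 against DN2, DN4 against DN3 and DN4 against DN2. The replicate block (sort number) gave 10, 12 and 19, ended no call of a member, and for all genes moved 1253 to 2325 and 1806 to 3369. No normalisation gave 1, 5 and 11, with 603, 2877 and 3033 genes in all; it turned Pdk3 (-0.12) and Rpe (-0.10) in DN4 against DN3 and Bnip3 (-0.10) in DN4 against DN2, and ended 13 further calls. Median centring gave 4 members and no filter gave 3 (1129 genes in all) for DN4 against DN3, no filter gave 2 for DN3 against DN2, and the mean of all probe sets gave 5 for DN4 against DN3. No filter leaves more genes to adjust over; the cause of the other changes was not tested.

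Sorts 1 and 2 alone gave 1, 0 and 4 members (256, 225 and 1863 genes in all), and sorts 3 and 4 alone 1, 0 and 9 (437, 233 and 2243), with fewer arrays. Leaving out each array gave 3 to 4, 3 to 8 and 12 to 17 members; for DN4 against DN3 the lowest was without DN3 replicate 2, which also gave the fewest genes (1115 to 1909 in all). Without the 3 dimmest arrays the counts were 2, 2 and 8 (630 genes for DN4 against DN3 and 2084 for DN4 against DN2). The block with the Gapdh ratio as a covariate gave 2 members and 397 genes for DN3 against DN2, and 2736 genes for DN4 against DN3. The isozyme test could hardly pass at this size in any setting (smallest adjusted p = 0.0935, exact permutation), so it says nothing about stability. Signal near the filter level limits Pdk2, and Aldoc in DN4.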
